A study of Rattus norvegicus with 120 samples.

Results

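The proteasome subunit genes of the rat eye are the 42 genes whose symbol begins with Psma, Psmb, Psmc, Psmd, Psme or Psmg and continues with a number, together with Adrm1, and that have at least 1 probe set (a group of short array probes against 1 transcript) annotated to that symbol alone. Psmb8 and Psmb9, the inducible catalytic subunits of the immunoproteasome, were kept out of the set and used as a separate readout on the same arrays. The 42 genes were carried by 56 probe sets, and 9 of them had several; each gene was represented by its probe set of highest mean. They stood among 14217 genes with a probe set of their own, of which 12326, all 42 included, passed a filter on low values at 4.28 log2 units. Psma8, Psmb6, Psmb11 and Psme3 lacked a probe set annotated to them alone and were not analysed here.

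The study measured messenger RNA in whole eyes of 120 male F2 rats aged 12 weeks, bred from an intercross of the inbred strains SR/JrHsd and SHRSP, as the basis of an expression quantitative trait locus experiment. Both eyes of an animal were pooled into 1 RNA sample and hybridised to 1 array, with no treatment named and no replicate array. All animals therefore form 1 group, and each F2 animal carries its own mixture of the alleles of both strains; genotypes were not used here. The sample titles give each array an S code (10 codes, 11 to 13 arrays each) and an L code (22 codes, 2 to 11 arrays each), whose meaning the labels do not state. For 5 of the S codes the titles also carry a date, the same for all arrays of a code.

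The 26S proteasome is the large protease that degrades ubiquitin-tagged proteins. Its barrel-shaped core particle is built of outer rings of alpha subunits (Psma genes) and inner rings of beta subunits (Psmb genes), which hold the proteolytic sites. A regulatory particle caps the barrel: its base holds a ring of ATPases (Psmc genes) that unfold substrates, with scaffold and ubiquitin-receptor subunits, and its lid carries the enzyme that cuts ubiquitin off. Other members are activators that open the core in place of the regulatory particle (Psme genes) and chaperones that assemble the complex without staying in it (Psmg1 to Psmg4, Psmd5, Psmd9 and Psmd10). Subunit genes are known to be expressed together, with NFE2L1 as a transcription factor that raises them when proteasome activity falls, and interferon is known to induce the immunoproteasome subunits and the PA28 activator. In the eye, photoreceptors and the lens are tissues in which protein turnover has long been studied.

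The 75th percentile of the log2 values lay between 7.11 and 7.70 on the 120 arrays. Markers of rods (6 of 6 with a probe set), lens (8 of 8), retinal pigment epithelium (4 of 4) and corneal epithelium (5 of 5) were above the filter. Markers of skeletal muscle (8 of 8), lacrimal and Harderian gland (3 of 3), red blood cells (3 of 3) and microglia and macrophages (5 of 5) were above it too, and of the myelin markers 1 of 2. In bulk tissue, fewer cells of a type and less RNA per cell cannot be told apart. The arrays of animals 63, which was rescanned, and 15 stood apart from the rest, and the results that rest on them are given with and without them. With 1 array per animal, the p-values measure the spread between animals together with the error of single arrays, and their precision is limited by how many arrays there are.

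The proteasome genes had a low spread between animals in these eyes. After the mean of each S code had been removed, the SD over animals had a median of 0.097 log2 units over the 42 genes, against 0.148 over all 12326 genes. Signal level was not matched in this comparison. The medians of the members lay between 6.69 and 11.07, while the 12326 genes reach down to the filter at 4.28. The part of signal level in the lower spread was not tested. Only 6 of the 42 genes differed by at least 2-fold from the lowest to the highest of the animals, where 45.3% of all genes did. With the S code means kept in, 13 of 42 did, against 62.1% of all genes. Without animals 63 and 15 the count was 3 of 42, against 24.4% of all genes. The steadiest genes were Psmc2, an ATPase of the base, with an SD of 0.058, and Psmb5, the catalytic subunit with chymotrypsin-like activity, with an SD of 0.062. Psmc4, another ATPase, followed at 0.065, and Psmb1, a structural beta subunit, at 0.073. As deposited, Psmb5 lay at 10.45 in the lowest animal, 10.66 at the median and 10.84 in the highest. The highest and the lowest of 120 animals thus differed by 1.30-fold.

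The genes that varied most sat in the lid and in the base. Psmd11, a scaffold subunit of the lid, ranged from 8.54 through a median of 9.78 to 10.22, and after removal of the S code means its SD was 0.265 and its range 3.13-fold. Its lowest animal was 15, and without animals 63 and 15 it still spanned 2.45-fold with an SD of 0.236, the highest of the 42 in both cases. Its second probe set, also bright with a mean of 9.28, had an SD of 0.116 and an r of 0.046 with the first, so this spread was seen in 1 of its probe sets and not in the other. Psmd8, another lid subunit, ranged from 7.88 through 8.85 to 9.14 and spanned 2.11-fold (2.002-fold without animals 63 and 15). Adrm1, a ubiquitin receptor of the base, ranged from 5.78 through 6.69 to 7.85 and spanned 2.10-fold with and without them. Psmd12 of the lid spanned 2.62-fold, Psmg4, an assembly chaperone, 2.17-fold and the ATPase Psmc6 2.07-fold, but these ranges shrank to 1.53-fold, 1.52-fold and 1.55-fold without the animals 63 and 15. Animal 63 was the lowest of 120 for 26 of the 42 genes and animal 15 for 6, while animal 20 was the highest for 8. Animal 13 was the highest for 3 genes: Psmb10, Psme1 and Psme2.

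Levels of every proteasome gene differed between the S codes. In limma's F test across the 10 codes, with Benjamini-Hochberg adjustment over all 23326 probe sets past the filter, 42 of 42 genes passed an adjusted p of 0.05. The same held for 92.8% of all genes, so the count is near the background. The median share of variance between S codes was 35.6% for the proteasome genes and 31.3% for all genes. Of the 43 marker genes of eye and neighbouring tissues tested, 32 differed between S codes as well, and their part in these differences was not tested.

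Adrm1 was the extreme case, ranking 2nd of 12326 genes by this test. Its mean level was 6.98 in S1, 6.08 in S2, 6.91 in S3, 7.36 in S4 and 6.28 in S5. In the other codes it was 6.65 in S6, 7.57 in S7, 6.37 in S8, 6.73 in S9 and 6.24 in S10. The SD within a code was 0.127 to 0.271, so the codes S4 and S7 lay well above S2, S5 and S10, by up to 2.81-fold between S7 and S2. S code held 87.3% of the variance of Adrm1 (F = 85.3, adjusted p = 5.68e-43 in limma). Psma2, an alpha ring subunit, followed with 72.4% of its variance between codes, from a mean of 9.52 in S4 to 10.05 in S10. Psmd14, the deubiquitinase of the lid, had 63.4%, Psme1, a PA28 activator subunit, 60.7%, and Psmd10, an assembly chaperone also called gankyrin, 59.5%. The smallest F was that of Psmb2, a beta subunit, at 2.55 (adjusted p = 0.0121 in limma). The codes did not move all genes alike: S6 had the highest mean for 17 genes and S10 for 10, while S4 had the lowest for 14 and S7 for 9. Adrm1 was thus highest in S7, where 9 other members were lowest.

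**Figure D1:**
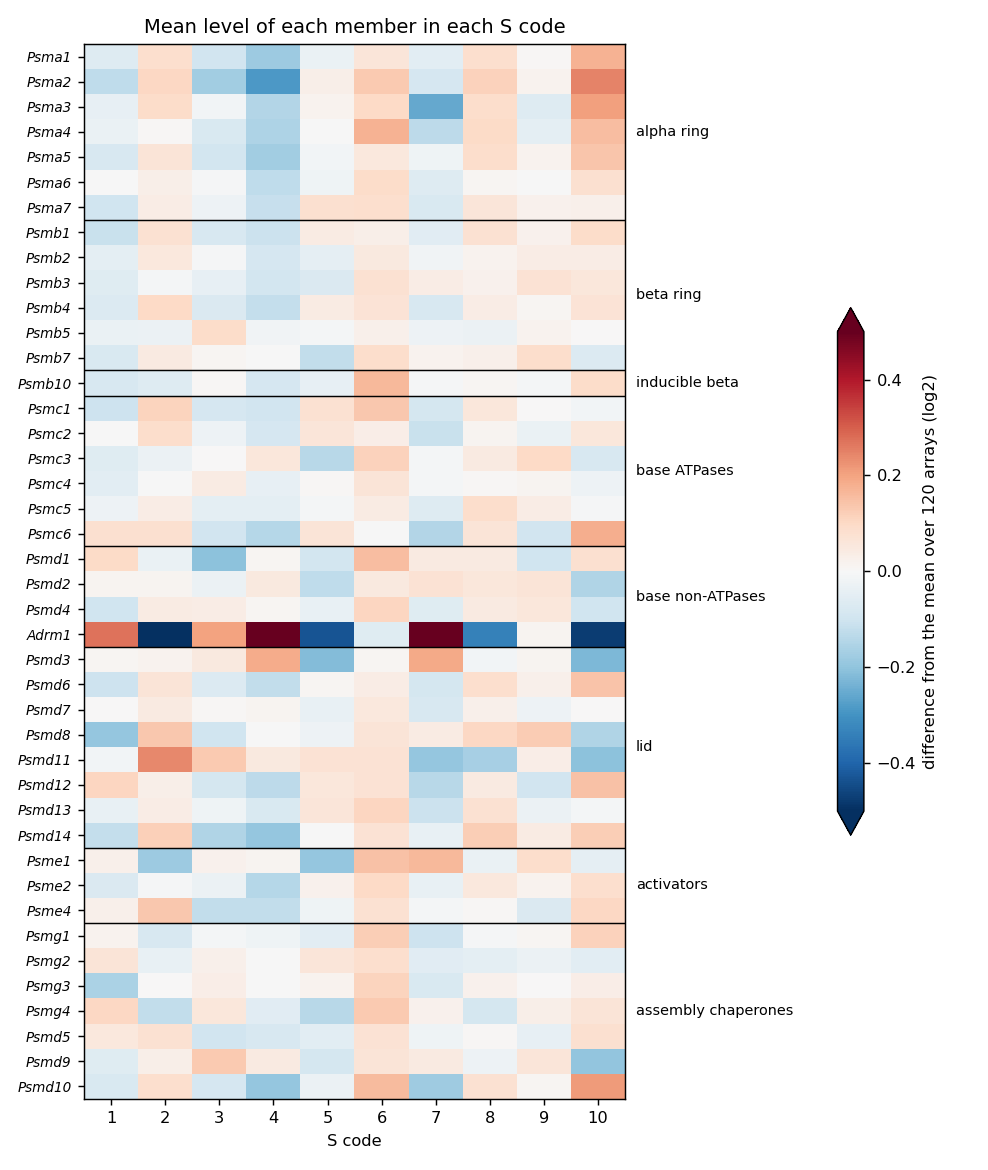
Mean level of each proteasome gene in each of the 10 S codes, as the difference from its mean over 120 arrays (log2, colour), with genes in rows ordered by role. Adrm1 swings most, from 6.08 in S2 to 7.57 in S7, and 6 of the 7 alpha ring genes have their lowest mean in S4.

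Within S codes, L code passed the test for none of the proteasome genes. In limma, 0 of 42 passed an adjusted p of 0.05, where 5.35% of all genes did. At an unadjusted p under 0.05 there were 2, both assembly chaperones: Psmg2 (p = 0.0170, adjusted p = 0.142 in limma) and Psmd9 (p = 0.0451). Psmb9, the immunoproteasome subunit outside the set, passed with an adjusted p of 0.0331 in limma. Levels were also compared with the 3 classes that a single locus of large effect gives in an F2. A mixture of normal distributions in the proportions 1:2:1 was preferred over 1 normal distribution, by a BIC lower by more than 10, for 0 of 42 genes and for 0.138% of all genes. The largest BIC difference was 5.99, for the ATPase Psmc3.

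As a description over their 861 pairs, the proteasome genes correlated with each other more often than genes at large. After removal of the S code means, the median Pearson r was 0.285, against 0.066 over all pairs of genes, and 697 pairs (80.95%) were positive, against 59.5% of all pairs. An r of at least 0.5 was reached by 175 pairs (20.3%), where 5.91% of all gene pairs reached it. With the S code means kept in, 210 pairs did, against 7.76% of all. Part of this rested on the array of animal 63. Without it the median r was 0.173 and 85 pairs reached 0.5, while without animal 15 alone the median was 0.288. Without both, 68 pairs (7.90%) reached 0.5, where 2.85% of all pairs did, and the median r was 0.169 against 0.033. All values of a pair come from the same arrays, so array-wide differences enter both genes. A high r with the members was not particular to the set. Of the 100 genes of highest median r with the members, 8 were members, and 2 when animals 63 and 15 were left out.

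Pairs of genes from the same structural module had the higher median r, again as a description. The pairs within a role had a median r of 0.399 and those between roles 0.273 (0.248 and 0.162 without animals 63 and 15). The beta ring was the most uniform module: all 15 pairs of its 6 genes lay between 0.326 and 0.750, with a median of 0.486. The alpha ring had a median of 0.454 over 21 pairs, the ATPase ring 0.418 over 15 pairs and the lid 0.345 over 28 pairs. With animals 63 and 15 left out, the medians were 0.377 for the beta ring, 0.277 for the alpha ring, 0.248 for the ATPases and 0.174 for the lid. The assembly chaperones had 0.164 (0.175 without those animals, next to the lid), and the base subunits other than ATPases, Psmd1, Psmd2, Psmd4 and Adrm1, had -0.088 over 6 pairs (-0.039). The genes of highest median r with the other 41 were Psmb4 (0.431), Psma5 (0.426), Psmb2 (0.413), Psmd7 (0.409) and Psmc2 (0.403). When animals 63 and 15 were left out these were 0.250, 0.218, 0.250, 0.221 and 0.203, and Psmb4 and Psmb2 were followed by Psma7 (0.237), Psma4 (0.231) and Psma6 (0.226). At the other end stood Adrm1, with a median r of -0.115 and a positive r with 9 of 41 genes, and Psmg2 (0.031) and Psmd9 (0.048), both chaperones. With those animals left out, Adrm1 was at -0.026 with 15 of 41 positive, followed by Psmc6 (-0.004), Psmd11 (0.041) and Psmd2 (0.045), while Psmg2 was at 0.168.

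**Figure D2:**
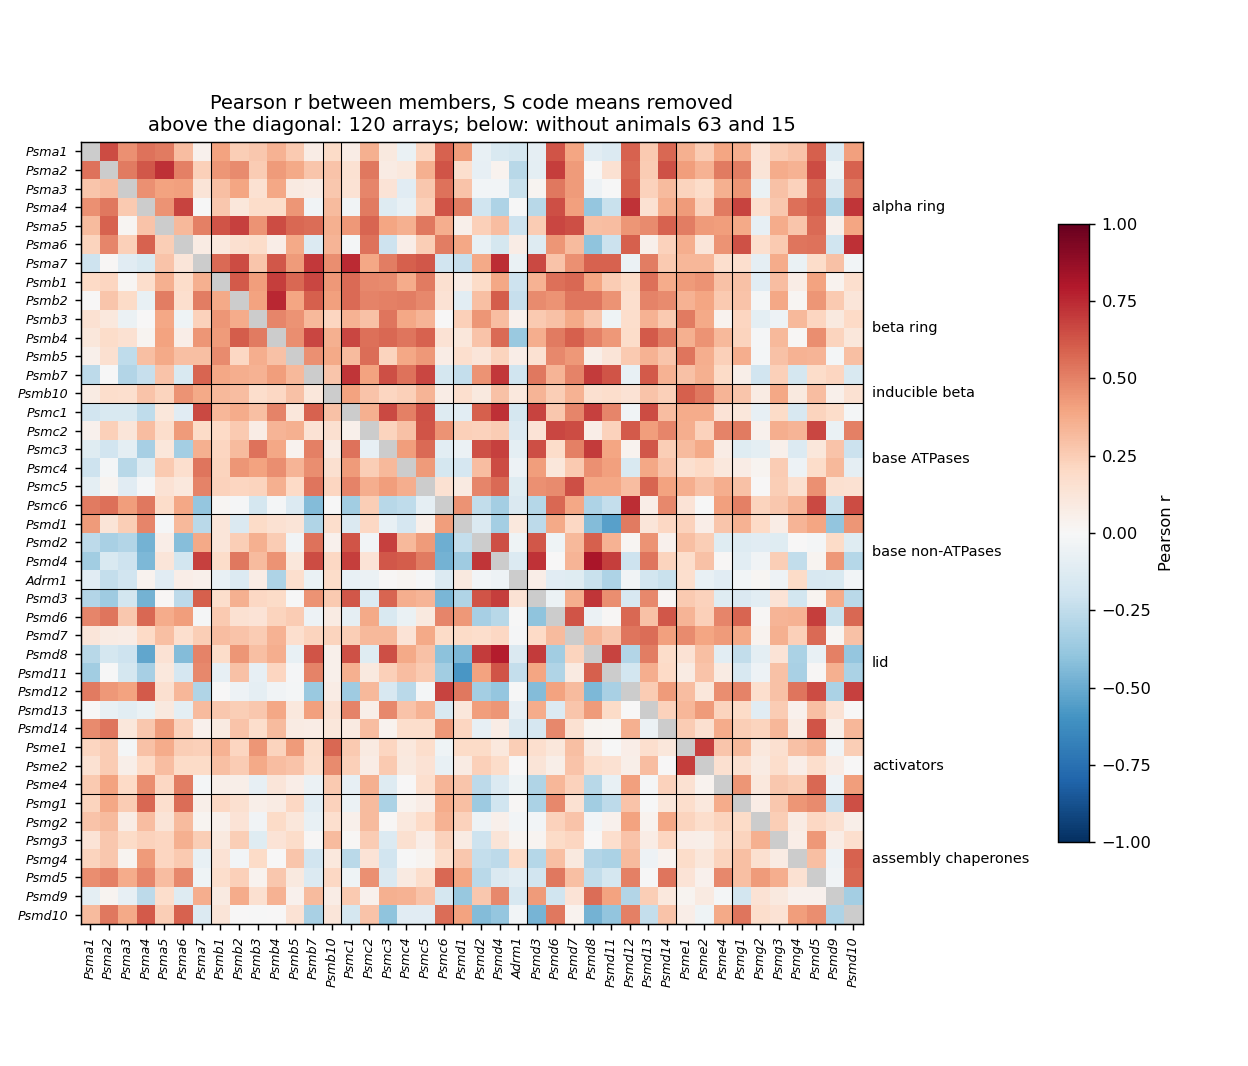
Pearson r between the 42 proteasome genes, S code means removed, with genes ordered by role (colour scale of r); above the diagonal all 120 arrays, below it without animals 63 and 15. The beta ring block is positive throughout above the diagonal (0.326 to 0.750), Adrm1 is pale or negative, and the lower triangle is weaker, with a median of 0.169 in place of 0.285.

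Of the 6 pairs of highest r, 5 joined the regulatory particle to itself or to the core, and 1 lay inside the beta ring. Psmd4, the ubiquitin receptor also called Rpn10, and Psmd8 of the lid had r = 0.817 and rho = 0.754. Psmb2 and Psmb4, both of the beta ring, had r = 0.750 and rho = 0.628. Psma7, an alpha subunit, had r = 0.745 (rho = 0.543) with the ATPase Psmc1 and r = 0.739 (rho = 0.624) with Psmd4. Psmc6 and Psmd12 had r = 0.739 (rho = 0.675), and Psmc1 and Psmd4 r = 0.734 (rho = 0.619). For each of these r and rho, the two-sided permutation p over 100000 permutations within S codes was 1e-05, the smallest they can give, and the adjusted p of the limma slope was at most 2.66e-14. When the 2 animals with the most extreme values of the first gene, counted from its median, were left out, r stayed between 0.623 and 0.779 for these 6 pairs, and without animals 63 and 15 between 0.607 and 0.784. Within single S codes of 11 to 13 animals, r was positive in all 10 codes for Psmd4 with Psmd8, Psmb2 with Psmb4 and Psmc6 with Psmd12, and in 9 of 10 for the other 3 pairs.

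Some members went against each other. Psmd1, the large scaffold of the base, was low in animals in which Psmd11 was high: r = -0.542, rho = -0.595, permutation p = 1e-05 for both, adjusted p = 8.09e-09 in limma, negative in 10 of 10 S codes. With the 2 animals most extreme in Psmd1 left out it was -0.527. Psmd1 also opposed Psmd8 (r = -0.437, rho = -0.422, permutation p = 1e-05 for both, adjusted p = 6.88e-06 in limma, -0.423 without the 2 most extreme animals) in 9 of 10 codes. Psma6, an alpha subunit, opposed Psmd8 as well (r = -0.401 with permutation p = 0.00077, rho = -0.321 with p = 0.0006, adjusted p = 4.43e-05 in limma, -0.434 without the 2 most extreme). Psmd1 and Psmd9 had r = -0.397 (permutation p = 2e-05) and rho = -0.374 (p = 8e-05), with an adjusted p of 7.28e-05 in limma and -0.399 without the 2 most extreme. These 10 pairs are the extremes of 861, chosen by their r, and those of Psmd11 use its first probe set, which the second did not follow.

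The opposed genes also differed in their relation to a measure of RNA integrity. The array carries control probe sets for the 3′ and the 5′ end of beta-actin, and since labelling starts at the 3′ end, their difference rises as RNA is broken or incompletely copied. It lay between 0.80 and 1.72 log2 units over the 120 arrays, with a median of 1.17 and an SD of 0.149 within S codes. In limma, with S code as a covariate, 26 of 42 proteasome genes (61.9%) were related to it, where 64.6% of all genes were. Of these, 14 (33.3%) were higher with a larger difference, where 47.7% of all genes were, and 12 (28.6%) were lower, where 16.9% were. With array medians subtracted, the split was 21 higher and 9 lower of 30. Of the 43 tissue marker genes, 24 were related to the difference too, 8 higher and 16 lower.

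Members lower with a larger difference were led by Psmd8, with a slope of -0.122 ± 0.012 (SE) log2 units per SD (adjusted p = 1.07e-15 in limma), negative in 10 of 10 S codes. Psmd11 had -0.123 ± 0.022, Psmd3 -0.068 ± 0.013 and Psmd4 -0.065 ± 0.010. Those higher were led by Psma4, an alpha subunit, at 0.072 ± 0.009 (adjusted p = 6.76e-12 in limma), and Psmd1 at 0.093 ± 0.013 (adjusted p = 2.61e-10), each positive in 10 of 10 codes. Psmd12 had 0.082 ± 0.012, Psmg4 0.062 ± 0.012 and Psmd10 0.053 ± 0.009. Of the 7 chaperones, 6 were related to the difference, 5 higher and Psmd9 lower. The split runs through the lid, since Psmd8, Psmd11 and Psmd3 lay on one side and Psmd12 on the other.

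Grouped by that slope, which by itself places genes of 1 side together, the pairs are given as a description. The 66 pairs among the 12 genes lower with the actin difference had a median r of 0.575, the 91 pairs among the 14 higher ones 0.498, and the 168 pairs across had -0.071, none at 0.5 or above. With both integrity measures, that of actin and the like one of GAPDH, removed, the median across rose to 0.119, and those within were 0.521 and 0.369. Under that removal, r between Psmd1 and Psmd11 was -0.330 and between Psmd1 and Psmd8 0.0004. Different probe sets of 1 gene did not always share the sign of the slope. The 3 of Psme4, the PA200 activator, had slopes of 0.053, -0.056 and 0.106. The first of Psmd7, a lid subunit, had 0.009 and its second -0.073 (adjusted p = 1.01e-09 in limma), and the second of Psmd11 had 0.003 (adjusted p = 0.847). The 3 of Psmc6 had 0.061, 0.068 and 0.080, all on 1 side.

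**Figure D3:**
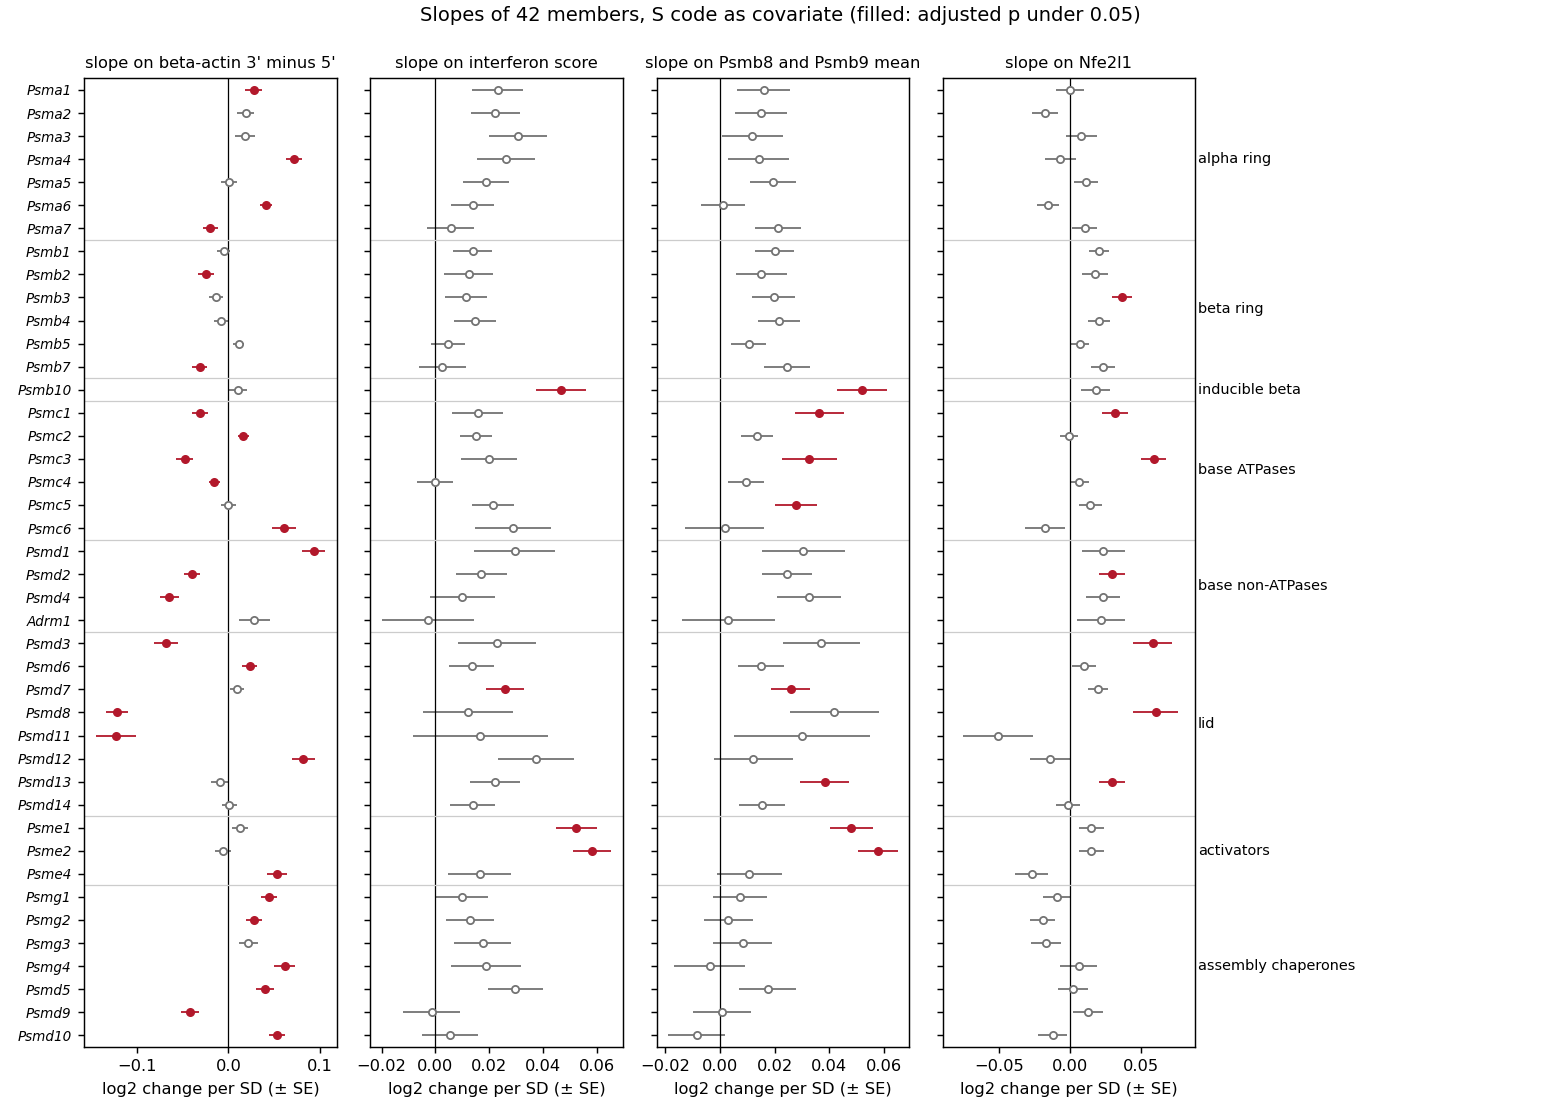
Slope of each of the 42 proteasome genes on 4 measures, in log2 units per SD of the measure (x axis) with its SE as bars, S code as covariate; filled points have an adjusted p under 0.05 in limma. On the actin difference the genes spread to both sides (14 higher, 12 lower), while on the interferon score, the Psmb8 and Psmb9 mean and Nfe2l1 all filled points are on the positive side (4, 8 and 7).

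Additional probe sets gave a mixed account of the same genes. The 14 further probe sets of 9 genes correlated with the first one from -0.425 for Psme1 to 0.828 for Psmc6, with a median r of 0.378, and 3 of the 14 reached 0.5. In Psme1 the second probe set was dim, with a mean of 4.59 near the filter. In Psmd11 both were bright, and r was 0.046. The 3 probe sets of Psmc6 followed each other.

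When the first 5 principal components of all genes were also removed, 25 pairs had an r of at least 0.5 (2.90%), against 0.066% of all gene pairs, and 659 pairs (76.5%) were positive. Of these 25 pairs, 23 were at 0.5 or above before this removal too, and Psmb5 with Psmb7 and Psmc2 with Psmc4 were not. By role, 11 lay within a role and 7 within the beta ring: Psmb1 with Psmb7 (0.631), with Psmb5 (0.578), with Psmb4 (0.548) and with Psmb2 (0.524), Psmb2 with Psmb4 (0.571), Psmb5 with Psmb7 (0.545) and Psmb4 with Psmb7 (0.523). Psma7 with Psmc1 (0.603) and Psma5 with Psmb5 (0.579) were the next highest, and Psme1 with Psme2 (0.511) were also among them. The beta ring and the alpha ring each gave 5 of the 18 genes in these pairs.

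Psma5 and Psmb2 were among the 5 genes of highest median r over all 120 arrays, though Psma5 was not without animals 63 and 15. Their promoters are shown because both hold several matches to motifs searched in all promoters. The sequences are those of RefSeq on the rat assembly GRCr8, from 250 bases before to 10 bases after the transcription start, 5′ to 3′ on the strand of the gene. Psma5 lies at chr2:198584255-198584514 on the plus strand and Psmb2 at chr5:144254808-144255067 on the plus strand. Capitals mark matches, on either strand, to TGANNNNGC and to CCAAT, the box bound by NF-Y, and overlapping matches run together. TGANNNNGC is a loose form of the core of the antioxidant response element that NFE2L1 and NFE2L2 bind, with the base after TGA left free.
Psma5: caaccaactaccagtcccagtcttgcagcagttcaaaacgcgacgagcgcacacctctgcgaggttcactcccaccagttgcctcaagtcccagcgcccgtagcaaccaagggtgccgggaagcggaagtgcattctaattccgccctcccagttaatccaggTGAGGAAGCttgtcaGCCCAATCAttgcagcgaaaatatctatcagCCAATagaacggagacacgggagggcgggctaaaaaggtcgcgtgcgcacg
Psmb2: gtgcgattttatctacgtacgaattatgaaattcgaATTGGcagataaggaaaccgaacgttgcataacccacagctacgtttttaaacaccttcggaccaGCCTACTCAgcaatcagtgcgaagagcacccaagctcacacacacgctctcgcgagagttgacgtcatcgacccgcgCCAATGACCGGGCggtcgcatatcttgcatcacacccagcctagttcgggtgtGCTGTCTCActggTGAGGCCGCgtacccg
Psma5 held 2 matches to each motif, and Psmb2 held 4 to TGANNNNGC and 2 to CCAAT. They do not stand for all genes of high median r. Psmb4, the highest over all 120 arrays, held TGANNNNGC at -7 and no CCAAT. Psmc2 held TGANNNNGC and no CCAAT, and Psmd7 held both.

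Promoters of 38 of the 42 genes were matched in RefSeq's table, each with a window of 300 bases, 250 before and 50 after the start. TGANNNNGC was found in 20 (52.6%), against 40.4% of all 27457 promoters, and CCAAT in 18 (47.4%), against 37.7%. TGACTCA, an AP-1 site, was found in 1 (2.63%, Psmc6), against 4.53%, and TATAAA, the TATA box, in 4 (10.5%), against 14.3%. GCCATNTTG, the YY1 motif, was found in Psmb1, Psmd5 and Psmd7 (7.89%), against 3.06%. The median GC content was 57% for the members and 52.3% for all promoters. A match is a description of letters, not a binding site, and short motifs are common in any promoter.

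Members that interferon is known to induce were higher in animals with a higher interferon response. The interferon score was the mean standardised level of 16 interferon-response genes, such as Irf7, Isg15 and Mx1, none of them a proteasome gene, with S code means removed. In limma, 4 of 42 genes (9.52%) were higher in animals with a higher score and 0 were lower, where 4.46% of all genes were higher and 1.4% lower, 5.87% in all. These 4 were Psme2 and Psme1, which form the PA28 activator, Psmb10, the third inducible catalytic subunit, and Psmd7. Psme2 ranged from 8.55 through a median of 8.89 to 9.24, and its slope was 0.058 ± 0.007 log2 units per SD of the score (adjusted p = 1.2e-10 in limma). Psme1 ranged from 9.56 through 9.94 to 10.34, with a slope of 0.052 ± 0.008 (adjusted p = 9.85e-08). Psmb10 ranged from 7.31 through 7.74 to 8.09, with a slope of 0.047 ± 0.009 (adjusted p = 0.000426). Psmd7 had 0.026 ± 0.007 (adjusted p = 0.0219). Each of these slopes was positive in 9 of 10 S codes, and each change per SD is small in log2 units beside those of Psmb8 (0.148) and Psmb9 (0.163). Psmb8 and Psmb9 also varied more between animals. Their SDs after removal of the S code means were 0.370 and 0.210, against 0.074 to 0.107 for the 4 members.

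The relations did not pass among the animals between the ends of the score. Animal 13 had a score of 4.43 SD and animal 63 one of -2.63 SD, and 8 animals lay above 1.5 SD and 3 below -1.5 SD. Of the 8, 4 carried L code 17, which 6 animals carry in all. Among the animals within 1.5 SD, the slopes per SD of the score in those animals were 0.021 for Psme2 (adjusted p = 0.109 in limma), 0.017 for Psme1 (0.206), 0.016 for Psmb10 (0.378) and 0.0096 for Psmd7 (0.391), and only Psma1, an alpha subunit, passed. Without animal 13 alone 9 genes passed, all higher, the same 4 included, where 12.4% of all genes passed. Without animals 63 and 15, Psme2 (0.054), Psme1 (0.045) and Psmb10 (0.041, adjusted p = 0.00395 in limma) passed and Psmd7 (0.013, adjusted p = 0.373) did not. Of the 5 markers of microglia and macrophages, Aif1, C1qa and Cd68 were higher with the score, and with the mean of the 5 as a covariate Psme2 (0.052) and Psme1 (0.045) passed and Psmb10 (0.038, adjusted p = 0.0586 in limma) did not. With L code effects removed as well, Psmb10 (0.042, adjusted p = 0.0620 in limma) did not pass, and Psme2, Psme1 and Psmd7 did. The second probe set of Psme1, near the filter with a mean of 4.59, ran the other way, at -0.071 (adjusted p = 0.0351 in limma). That of Psmd7 was bright, with a mean of 8.72 and an r of 0.384 with the first, and did not pass. The first probe set of Psmd7 also did not pass with array medians subtracted, without the rescanned arrays or without S3.

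**Figure D4:**
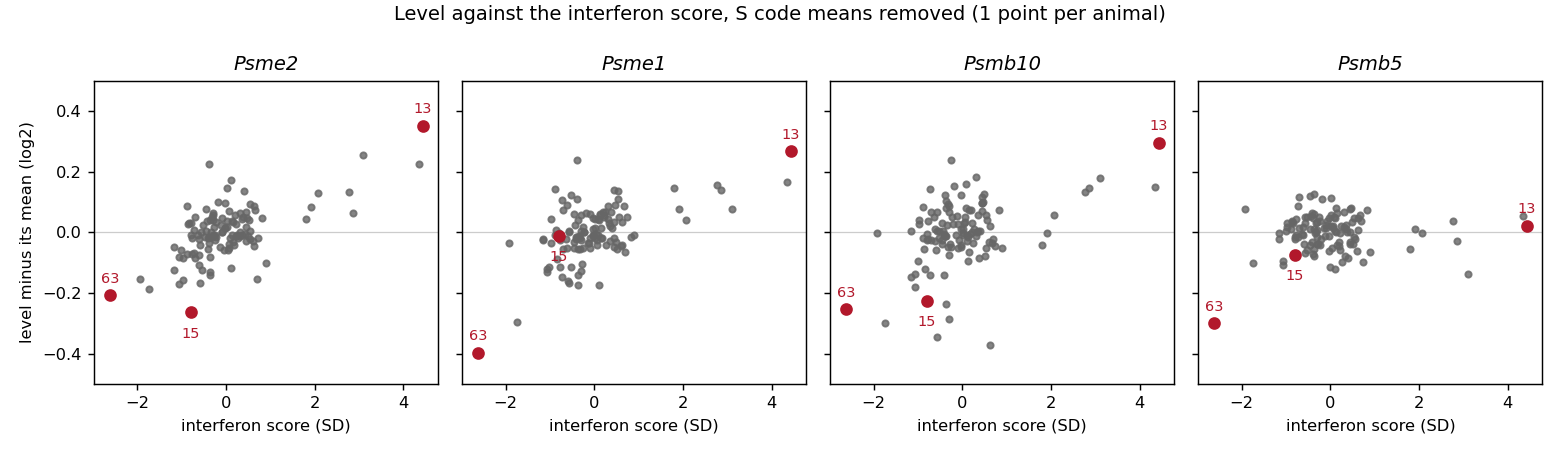
Level of Psme2, Psme1, Psmb10 and Psmb5 minus its mean (log2, y axis) against the interferon score (SD, x axis), S code means removed. Each point is 1 animal, and animals 13, 15 and 63 are labelled. Psmb5, which did not pass with the score, is shown beside the inducible members. Animal 13 lies farthest to the right at 4.43 SD, 8 animals lie above 1.5 SD and 3 below -1.5 SD, and among the animals between them none of the 4 slopes passed.

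The 3 inducible members also varied with each other. Psme1 and Psme2 had r = 0.682 and rho = 0.618 (permutation p = 1e-05 for both, adjusted p = 6.65e-11 in limma), 0.652 without the 2 animals most extreme in Psme1, and positive in 10 of 10 S codes. Leaving out animals 63 and 15 gave 0.691, and leaving out animal 13 gave 0.652. Psmb10 had r = 0.595 (rho = 0.430) with Psme1 and r = 0.525 (rho = 0.432) with Psme2, with a permutation p of 2e-05 for the rho with Psme2 and of 1e-05 for the other 3 values, and adjusted p of 3.88e-07 and 6.02e-05 in limma. Without the 2 animals most extreme in Psmb10 these were 0.602 and 0.570. Pairs among these 3 genes were chosen after their slopes had been seen.

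The promoters of these genes are shown because they differ in a motif of the interferon response. Psmb10 lies at chr19:50743283-50743542 on the minus strand, Psme2 at chr15:33052742-33053001 on the minus strand, Psme1 at chr15:33038721-33038980 on the plus strand and Psmd7 at chr19:52411307-52411566 on the minus strand, on GRCr8 and from RefSeq as above. Capitals mark matches, on either strand, to the repeat GAAA, any 2 bases, GAAA, which is bound by interferon regulatory factors, and to TTCNNNGAA, the spaced palindrome bound by STAT factors.
Psmb10: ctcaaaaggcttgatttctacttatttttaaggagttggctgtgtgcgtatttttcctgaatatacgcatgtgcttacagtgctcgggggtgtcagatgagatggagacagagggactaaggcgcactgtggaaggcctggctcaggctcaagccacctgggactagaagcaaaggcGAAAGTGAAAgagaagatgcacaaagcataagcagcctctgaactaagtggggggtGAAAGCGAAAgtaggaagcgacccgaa
Psme2: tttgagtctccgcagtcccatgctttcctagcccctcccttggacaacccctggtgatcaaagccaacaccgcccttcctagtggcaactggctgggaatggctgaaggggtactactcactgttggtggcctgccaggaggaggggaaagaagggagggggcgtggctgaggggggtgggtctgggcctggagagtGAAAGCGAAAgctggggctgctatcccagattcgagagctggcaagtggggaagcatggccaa
Psme1: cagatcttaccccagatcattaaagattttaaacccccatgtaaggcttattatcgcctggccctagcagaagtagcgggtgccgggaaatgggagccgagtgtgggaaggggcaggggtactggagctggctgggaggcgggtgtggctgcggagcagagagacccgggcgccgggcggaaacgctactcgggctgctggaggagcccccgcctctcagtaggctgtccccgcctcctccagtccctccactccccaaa
Psmd7: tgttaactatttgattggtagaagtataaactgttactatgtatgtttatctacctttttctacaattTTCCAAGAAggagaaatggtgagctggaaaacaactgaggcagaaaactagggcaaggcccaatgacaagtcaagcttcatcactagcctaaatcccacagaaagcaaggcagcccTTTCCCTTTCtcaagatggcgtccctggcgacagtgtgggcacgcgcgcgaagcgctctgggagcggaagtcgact
Psmb10 held 2 matches to the GAAA repeat, which begin at -73 and -17 from the start, Psme2 held 1 at -53 and Psmd7 1 on the opposite strand at -66. Psmd7 also held the palindrome once. Psme1 held neither motif in this window, which says only that these letters are not there. Over the 38 promoters, the GAAA repeat was found in 6 (15.8%: Psma4, Psmb10, Psmb3, Psmd7, Psme2 and Psmg4), against 3.77% of all 27457, and TTCNNNGAA in 3 (7.89%), against 8.68%. At least 2 matches to the GAAA repeat were held by 70 of all promoters (0.255%). Both motifs were searched after the interferon slopes had been seen.

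Against the mean of Psmb8 and Psmb9, the immunoproteasome subunits left out of the set, 8 members passed, the inducible ones first. In limma 8 of 42 genes (19.05%) were higher and 0 lower, where 3.79% of all genes were higher and 0.763% lower, 4.55% in all. Psme2 led again with 0.058 ± 0.007 log2 units per SD (adjusted p = 4.73e-10), followed by Psme1 at 0.048 (adjusted p = 4.43e-06) and Psmb10 at 0.052 (adjusted p = 2.93e-05). The other 5 were Psmd13, a lid subunit (0.038), the ATPases Psmc1 (0.036), Psmc5 (0.028) and Psmc3 (0.033), and Psmd7 (0.026). Without animals 63 and 15 only Psme2, Psme1, Psmb10 and Psmd13 passed. Without animal 13 all 8 passed, with Psmb3 in addition. This mean overlaps the interferon score. Psmb8 and Psmb9 were both higher with the score, and 15 of the 16 score genes were higher with the mean.

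Nfe2l1, the transcription factor known to raise proteasome genes, was related to a group of members that in part overlaps the group of the Psmb8 and Psmb9 mean. In limma 7 of 42 (16.7%) were higher in animals with more Nfe2l1 transcript and 0 lower, where 9.32% of all genes were higher and 1.44% lower, 10.8% in all. Psmc3 had the largest relation by its test, with 0.059 ± 0.009 log2 units per SD (adjusted p = 8.34e-07), positive in 9 of 10 S codes, and Psmb3, a beta subunit, had 0.036 ± 0.007 (adjusted p = 0.000148), positive in 10 of 10. Psmd8 (0.060), Psmd3 (0.058), Psmc1 (0.032), Psmd2, the other large scaffold of the base (0.029), and Psmd13 (0.029) also passed. Of the 7, Psmc1, Psmc3 and Psmd13 had also passed with the Psmb8 and Psmb9 mean, and Psmb9 itself was higher with Nfe2l1. Without animals 63 and 15, 5 of these 7 passed and Psma2, Psmd11 and Psme4 were lower. Of the 7 genes, 5 (Psmc1, Psmc3, Psmd2, Psmd3 and Psmd8) were also lower with a larger actin difference, as Nfe2l1 itself was (-0.058, adjusted p = 0.00972 in limma). With the actin and GAPDH differences as covariates 9 genes were higher: 6 of the 7 (Psmd2 did not pass) with Psmb1, Psmd1 and Psmd7, and Psmd11 was lower. Of the 43 tissue marker genes, 12 were higher with Nfe2l1 as well, where 9.32% of all genes were. Among the 12 were Rcvrn of rods, Lim2 of lens, Krt14 and Tkt of cornea, Aqp5 of gland and C1qa of microglia. Of 8 markers of skeletal muscle, 6 (Acta1, Actn3, Ckm, Myh4, Pvalb and Tnnt3) were among them. With the mean of those 8 as a covariate, Psmc3 (0.052, adjusted p = 0.000106 in limma), Psmb3 (0.033, adjusted p = 0.00294 in limma), Psmd3, Psmd8 and Psmc1 still passed, where 8.32% of all genes did. Without the arrays of S3, 2 genes were higher, Psmc3 and Psmb3, and Psmd11 was lower.

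Other genes of the pathway are given as counts from lists of regulators and cofactors (14 genes measured) and of ubiquitin handling and delivery (10 genes measured). All 14 and all 10 differed between S codes (92.8% of all genes did), and none passed with L code. With the actin difference, 7 regulators were higher and 2 lower, and 5 delivery genes were higher and 3 lower, where 64.6% of all genes were related to it, so these counts too are near the background. With the interferon score, only Psmf1, an inhibitor of the core (0.040, adjusted p = 0.0182 in limma), and Uba1, the main ubiquitin-activating enzyme (0.028, adjusted p = 0.0459 in limma), were higher. Over all genes, 4.46% were higher with the score, and in lists this short 1 gene each is near that share. With Nfe2l1, 4 delivery genes were higher, Nploc4, Stub1, Ubqln4 and Vcp, and of the regulators Ddi2, the protease that activates NFE2L1, with Psmf1 and Ube3c. Over all genes, 9.32% were higher with Nfe2l1. Vcp, the segregase that hands unfolded proteins to the proteasome, had an adjusted p of 4.1e-05 in limma.

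The 42 genes lie on 17 chromosomes. Among the 84 pairs of a member and the nearest measured gene on either side of it, 13 (15.5%) had an r of at least 0.5, where 10.8% of all neighbouring pairs did, and 8 (9.52%) without animals 63 and 15, where 6.45% of all neighbouring pairs did. The 3 highest were Psmd6, a lid subunit, with Atxn7 (r = 0.751, rho = 0.606), Psmd2 with Eif4g1 (r = 0.661, rho = 0.562) and Psmd10 with Mid2 (r = 0.660, rho = 0.516). Each had a permutation p of 1e-05 for both measures, and adjusted p of 2.93e-18, 6.16e-13 and 9.79e-14 in limma. Without the 2 animals most extreme in the member, r was 0.627, 0.659 and 0.595. Without animals 63 and 15 it was 0.611, 0.768 and 0.587, so Psmd2 with Eif4g1 was the pair that rested least on those arrays.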

How the data were processed

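Total RNA of both eyes of each of 120 rats was hybridised to 1 Affymetrix array, with 31099 probe sets on each. The authors deposited log2 values, made with RMA per the submitters' processing notes; no version is named, and the genome build is not given in the sources used here. Differences in total RNA are not measured by such values, and levels are not compared between genes. Of 31042 probe sets other than controls, 20826 carried 1 symbol, 436 several and 9780 none. Probe sets with a mean below the 25th percentile (4.28 log2 units) were left out of tests. Every probe set past the filter was fitted with limma 3.58.1 in R 4.3.3, with S code as a covariate except in its own test, and p-values were adjusted by Benjamini-Hochberg over 23326 probe sets at 0.05. Slopes are per SD of the covariate after S code means were removed. Correlations used Python 3.11.15, NumPy 2.4.6, pandas 2.3.3 and SciPy 1.17.1, with 100000 permutations within S codes. On simulated data with 200 changed probe sets, 98.5% were recovered in the S and L code tests (effect of 1 residual SD) and, at 0.5 residual SD per SD of the covariate, 96.5% for the actin difference, 97.5% for the interferon score, 100% for Psmb8 and Psmb9, and 97% for Nfe2l1. The false share of the calls was 7.94% for the S code and 3.96% to 5.34% for the other tests. The simulated probe sets varied independently, so array-wide differences shared by many genes were not simulated. Genes are named where they are members past a threshold, the most and least variable, or the pairs of highest and lowest r. The members and lists were chosen with earlier results of these data known. A comparison of protein sequences was planned and not run.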

Additional observations from a re-analysis of the deposited data

How the results depend on the processing

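Counts are of members passing, beside the main value. The share of all genes that pass changes with the setting too, and it is not given beside each count. A changed count alone is therefore no result about the members. For the 2-fold range, that share was 45.3% in the main setting, 62.1% with S code means kept and 24.4% without animals 63 and 15. With 6 members ranging over at least 2-fold, the count was 13 with S code means kept; 3 without the 3 rescanned arrays, without animals 63 and 15, without animal 63 alone, with actin and GAPDH differences as covariates and with L code effects removed; 0 with 5 principal components removed and 0 from the 6th lowest to the 6th highest animal. The 175 pairs at r of at least 0.5 became 83 without the rescanned arrays, 68 without animals 63 and 15, 85 without animal 63 alone, 25 with 5 components removed, 52 by Spearman's rho and 15 at an r of at least 0.7. The L code count of 0 became 5 with no S covariate and 1 with the actin and GAPDH differences. The 4 genes of the interferon score became 13 with no S covariate, 2 with the microglia and macrophage score, 2 with 5 components removed, 9 without animal 13 and 1 within 1.5 SD. The 8 of the Psmb8 and Psmb9 mean became 4 without animals 63 and 15, 5 at an adjusted p of 0.01, 15 with no S covariate and 3 with 5 components removed. The 7 of Nfe2l1 became 4 at 0.01 and 2 with 5 components removed.

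Leaving out each S code in turn gave 3 to 6 members of at least 2-fold range, 87 to 193 pairs, 3 to 8 genes for the interferon score, 4 to 9 for Psmb8 and Psmb9, and 3 to 11 for Nfe2l1. The lowest counts of pairs and for Nfe2l1 came without S3, which holds animal 63. Single genes were followed only for the called members of smallest p in each test. Among these, slopes that turned were those of the second probe sets of Psmd11 on the actin difference (0.0026) and of Psme1 on the interferon score (-0.071) and on Psmb8 and Psmb9 (-0.050), and of Psmc3 on Psmb8 and Psmb9 with 5 components removed (-0.00075). Outside these, the second probe sets of Psme4 (-0.056) and Psmd7 (-0.073) also turned on the actin difference. Of the other values of single genes, 681 showed no change of direction or side of the threshold, and 72 no longer passed. The 681 do not measure robustness, because part of them could not have changed. Values of the S code test have no direction and were judged by adjusted p alone. For the 33 members with 1 probe set, the setting with another probe set uses the same one. The stricter limit on adjusted p reuses the main slopes. How many of the 681 were fixed in these ways was not counted. The cause of the turned slopes and of the values that no longer passed was not tested. Settings with the marker scores, animals 13, 15 or 63 alone, the 1.5 SD limit and the last 2 motifs were chosen after seeing the data. No paired analysis was possible because all animals form 1 group. Signal near background limits the dim second probe sets.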
